A study of Rattus norvegicus with 99 samples.

Results

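The genes described here are the creatine kinases and the creatine transporter of the rat heart: Ckm, Ckb, Ckmt2 and Slc6a8. They were picked by symbol from a table of 17337 genes, all 4 were present, and all 4 passed the filter on low counts in every fit. Polyadenylated RNA of whole tissue was sequenced from both ventricles (LV, left; RV, right) and the septum between them (Spt) of 33 rats, which gave 99 libraries in 21 groups of treatment and chamber. All animals were male F1 offspring of Wistar Kyoto dams and Lewis sires, and all underwent surgery. The paper, by contrast, describes Wistar × Lewis hybrids and banding in male and female rats. A clip that did not yet constrict was set on the pulmonary artery (PAB) or on the aorta (AOB), so that load rose as the animal grew. At the hypertrophic stage, 7 weeks after surgery and at a labelled age of 11 weeks, there were 7 Sham-H, 7 PAB-H and 7 AOB-H animals. At the failure stage of PAB, 21 weeks after surgery and at 27 weeks of age, there were 3 PAB-F and 2 Sham-RF animals. At the failure stage of AOB, 24 weeks after surgery and at 30 weeks of age, there were 4 AOB-F and 3 Sham-LF animals. All these ages are as labelled. With the weeks after surgery, they place surgery at an earlier age in the hypertrophic arms than in the failure arms. The paper gives later ages at both stages. The treatment protocol gives a slightly later time for AOB-F than the sample fields printed here, and the description of the RV library of Sham-LF replicate 1 names a sham of the PAB arm, although its title, which was followed, places it with Sham-LF. Each animal gave 1 library per chamber, so the spread between libraries of a group is a spread between animals.

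Creatine kinases move a phosphate group between ATP and creatine. The mitochondrial enzyme, Ckmt2 (sarcomeric mitochondrial creatine kinase), charges creatine with phosphate where ATP is made, and the cytosolic enzymes spend phosphocreatine where ATP is used, at myofibrils and ion pumps. Cytosolic creatine kinase is a dimer of M subunits (Ckm, muscle type) and B subunits (Ckb, brain type), and adult working myocardium holds mostly M. Heart cells make little creatine of their own and take it up from blood through Slc6a8, a sodium- and chloride-dependent transporter.

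The stretch of 250 bases before the annotated start of each gene is shown as a description. The sequences are RefSeq's for build GRCr8, each written 5′ to 3′ on the strand of its gene, and none is read from the study's libraries. They span chr1:88189211-88189460 (plus strand) for Ckm, chr6:136553465-136553714 (minus strand) for Ckb, chr2:24845512-24845761 (minus strand) for Ckmt2 and chrX:156535767-156536016 (plus strand) for Slc6a8. Capitals mark matches, on either strand, to the E-box CANNTG, the CCAAT box CCAAT, the GC box GGGCGG, the ERR half-site AAGGTCA, the MEF2 consensus and the CArG box, and matches on the gene's strand to the TATA core TATAA.
Ckm: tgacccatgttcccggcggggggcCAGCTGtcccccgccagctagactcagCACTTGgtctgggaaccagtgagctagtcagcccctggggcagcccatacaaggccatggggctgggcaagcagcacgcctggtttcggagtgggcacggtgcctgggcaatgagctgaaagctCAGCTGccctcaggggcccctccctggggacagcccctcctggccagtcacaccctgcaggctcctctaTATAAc
Ckb: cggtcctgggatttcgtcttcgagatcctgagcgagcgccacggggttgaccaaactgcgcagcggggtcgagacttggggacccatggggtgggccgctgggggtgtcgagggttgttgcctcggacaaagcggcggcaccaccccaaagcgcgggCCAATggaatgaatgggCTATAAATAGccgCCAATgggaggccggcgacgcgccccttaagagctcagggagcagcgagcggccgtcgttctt
Ckmt2: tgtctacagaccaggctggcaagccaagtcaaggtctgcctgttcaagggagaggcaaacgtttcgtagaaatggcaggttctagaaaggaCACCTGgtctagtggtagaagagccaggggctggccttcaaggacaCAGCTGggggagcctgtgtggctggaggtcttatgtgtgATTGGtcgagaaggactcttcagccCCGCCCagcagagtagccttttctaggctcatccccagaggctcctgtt
Slc6a8: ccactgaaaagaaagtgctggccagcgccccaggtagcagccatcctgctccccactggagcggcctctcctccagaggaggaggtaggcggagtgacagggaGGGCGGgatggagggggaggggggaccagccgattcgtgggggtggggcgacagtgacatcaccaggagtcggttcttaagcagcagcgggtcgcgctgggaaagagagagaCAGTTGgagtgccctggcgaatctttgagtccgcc
Ckm held 3 E-boxes and a TATA core 6 to 2 bases before the start. Ckb held no E-box, but a TATA core that lies inside a MEF2 consensus match, with a CCAAT box on either side. Ckmt2 held 2 E-boxes, a CCAAT box and a GC box, the last 2 on the opposite strand. Slc6a8 held 1 E-box and 1 GC box. Among 27457 RefSeq stretches of the same length, 65.2% held an E-box, 34.3% a CCAAT box, 32.4% a GC box, 17.1% a TATA core, 3.77% the ERR half-site, 3.07% the MEF2 consensus and 1.5% the CArG box, so that the E-box is common and the MEF2 match in Ckb is rare. These matches are letters in a window and were not tested as binding sites.

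Several facts of the libraries bear on the values below. Depth ran from 12057180 to 24197244 counts per library, and the members drew from 1513 counts (the lowest Slc6a8 library) to 122495 counts (the highest Ckm library), so that counting error is small beside the spread between animals. Library numbers fall into 3 runs. The run takes up 50.9% of the variance of log2 Ckm in LV, 48.9% in RV and 3.67% in Spt. The arm takes up 46.9%, 44.6% and 50.5%. These shares overlap, since all failure-stage libraries of a chamber lie in 1 run. In Sham-H LV, Ckm averaged 6080 CPM in run 1 (CPM, the count scaled to a common library size), 4469 in run 2 and 4692 in run 3. All failure-stage LV and RV libraries lie in run 2 and all failure-stage Spt libraries in run 3, so AOB-F and PAB-F share a run with their shams in each chamber. In 3 animals (AOB-H replicate 1, PAB-H replicate 2 and Sham-H replicate 6) the LV and RV libraries differed in the direction opposite to that of the other 30 animals over 50 chamber genes, none of them a member, and values without these 3 are given where they change a result. In AOB-F the Spt library labelled replicate 3 correlated at r = -0.60 with the ventricles of its own animal and at r = 0.67 with those of replicate 4, and the Spt library labelled replicate 4 at r = -0.66 with its own and at r = 0.70 with those of replicate 3, over deviations of all expressed genes from the group mean. In all, 16 of 33 Spt libraries correlated best with the ventricles of their own animal. This held for 1 of 7 in Sham-H, 5 of 7 in PAB-H and 4 of 7 in AOB-H. In PAB-F it was 3 of 3, in AOB-F 1 of 4, in Sham-LF 2 of 3 and in Sham-RF 0 of 2. A random pick among the animals of an arm would give 1 per arm on average. Comparisons within a chamber do not use this match, while those between Spt and a ventricle with the animal as a block rest on it. The tissue was heart muscle by its markers: the summed level of 8 cardiomyocyte genes was 63758 to 117208 CPM, and 7 fast skeletal muscle genes, which would bring Ckm with them, summed to at most 15.0 CPM in all libraries other than 1 of PAB-H LV (255 CPM) and 1 of Sham-H Spt (89.6 CPM).

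Per length, Ckmt2 and Ckm were the abundant members. On the deposited FPKM scale, which corrects for gene length, the median library held 3387 FPKM of Ckmt2, 3043 of Ckm, 231 of Ckb and 44.5 of Slc6a8. By mean FPKM, Ckmt2 was the 24th, Ckm the 29th, Ckb the 396th and Slc6a8 the 1885th of the 17337 genes. Ckmt1b, the ubiquitous mitochondrial creatine kinase, ranked 1403rd. Of the summed FPKM of the 4 kinase genes, Ckmt2 made up 50.2% ± 3.56, Ckm 45.2% ± 3.54, Ckb 3.69% ± 1.27 and Ckmt1b 0.91% ± 0.15 (SD over 99 libraries). The mitochondrial and the muscle cytosolic transcript thus were at similar levels per length, and the brain-type transcript never exceeded 9.89%.

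**Figure D1:**
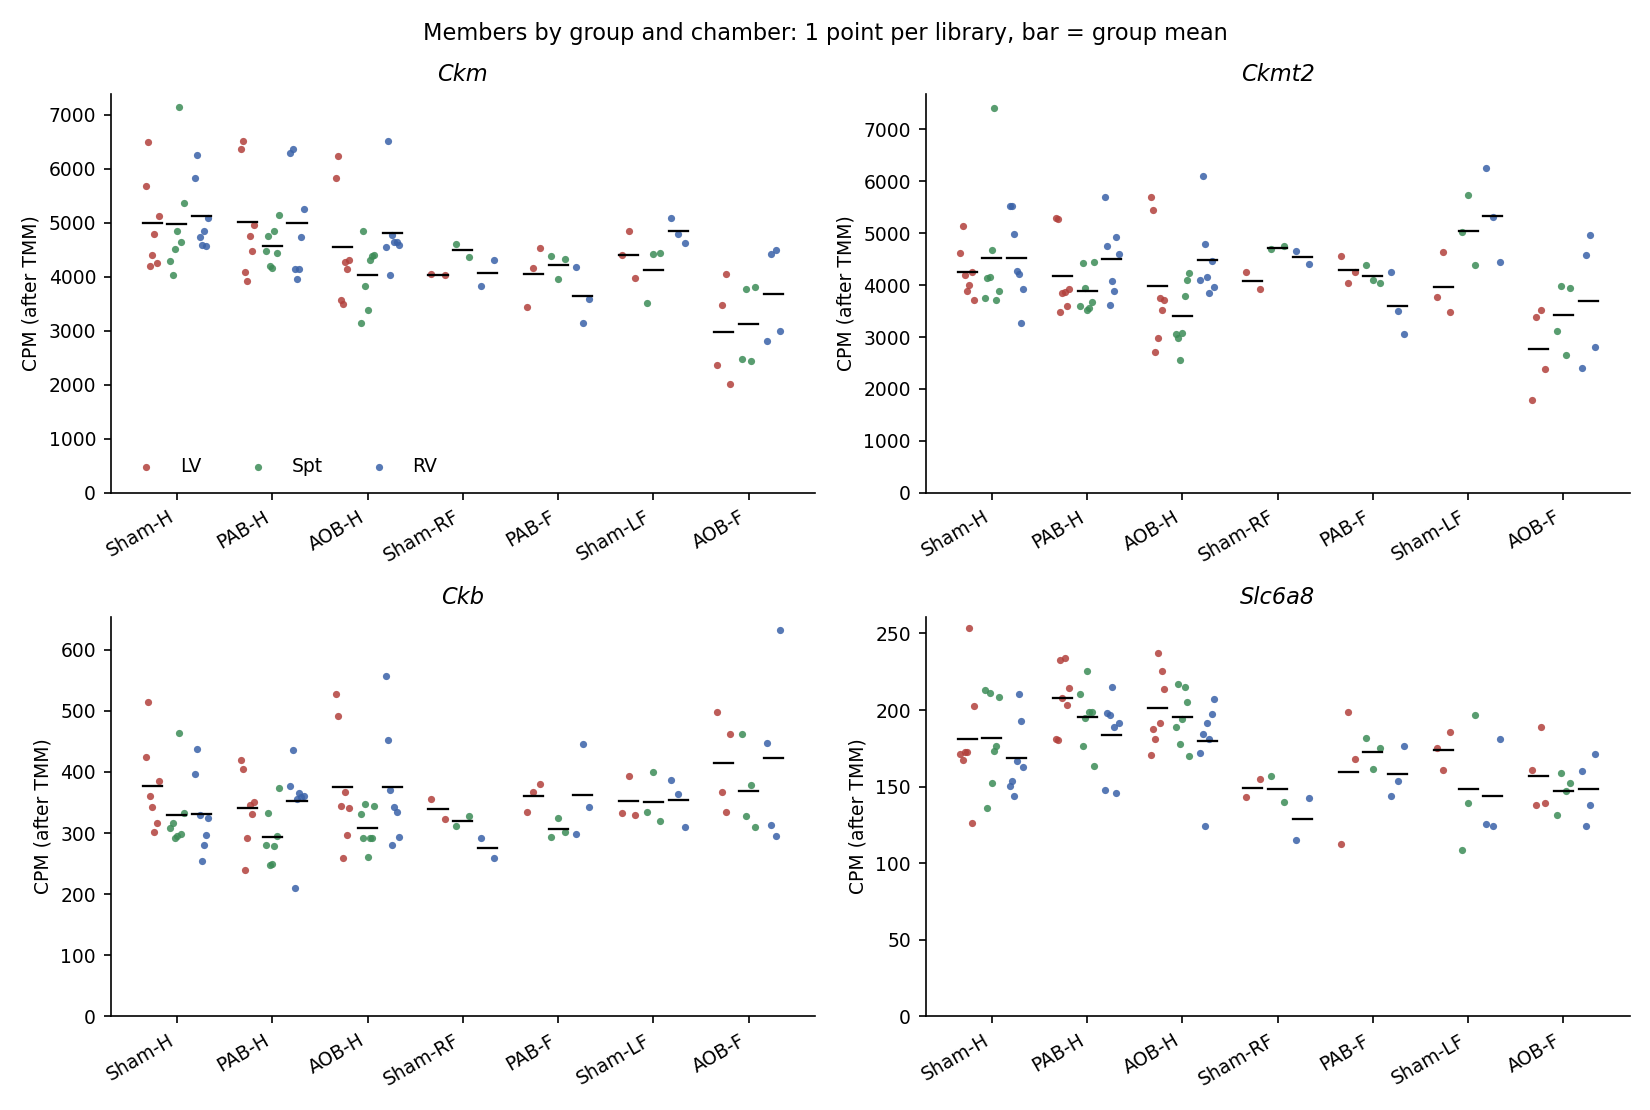
Level of each member in every library, in CPM after TMM scaling (vertical axes, from 0), by group (horizontal axes) and chamber (colour). Each point is 1 library and each black bar a group mean; for Ckm the lowest library is AOB-F LV replicate 4 (2011 CPM) and for Ckmt2 AOB-F LV replicate 1 (1794 CPM).

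The 21 group means of a member spanned at most a 1.93-fold range. On the CPM scale the means of Ckm ran from 2977 ± 951 in AOB-F LV (SD, n = 4) to 5128 ± 659 in Sham-H RV (SD, n = 7), a 1.72-fold range. Those of Ckmt2 ran from 2772 ± 826 in AOB-F LV (SD, n = 4) to 5341 in Sham-LF RV (n = 3; libraries at 4454 to 6261 CPM), a 1.93-fold range. Those of Ckb ran from 276 ± 23.3 in Sham-RF RV (SD, n = 2) to 422 ± 156 in AOB-F RV (SD, n = 4), a 1.53-fold range. Slc6a8 ranged 1.61-fold, from 129 ± 19.4 in Sham-RF RV (SD, n = 2) to 208 ± 21.9 in PAB-H LV (SD, n = 7). Of the 20 pairs of neighbours in the order of means, none differed by more than the larger of their SDs for Ckm, Ckb or Slc6a8, and 1 did for Ckmt2. Sorting 21 means in such a range makes neighbour gaps small in itself, so this count does not show how well the order is resolved. AOB-F LV was the lowest group for Ckm and for Ckmt2 and the second highest for Ckb.

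No member passed an adjusted p of 0.05 in any of the 25 comparisons of banding, age, chamber and their interactions by edgeR's quasi-likelihood test. Of the 100 values (4 members in 25 comparisons), 10 had an unadjusted p under 0.05, and all 10 were lower levels, against 8.3% of the 294134 values of all tested genes in the same comparisons, in either direction. They were those of Ckm and Ckmt2 in AOB-F in each chamber and in AOB-H in Spt, and Slc6a8 in the older shams in Spt and RV. DESeq2 gave 0 adjusted and 10 unadjusted values past the same limit. The lowest adjusted p was 0.159 by edgeR and 0.0993 by DESeq2. Below, the error of a log2 fold change is its SE and the error of a level or ratio is the SD.

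The comparison of AOB-F with Sham-LF asks how the energy-transfer genes stand once the aorta-banded heart fails, and its LV libraries held the lowest group means of Ckm and Ckmt2. In LV, Ckm was at 2366, 3483, 4050 and 2011 CPM in AOB-F replicates 1 to 4, and at 4402, 4849 and 3967 CPM in Sham-LF replicates 1 to 3. Replicates 1 and 4 were far below the shams, replicate 2 was below them and replicate 3 lay inside their range, so the groups overlapped. The log2 fold change was -0.56 ± 0.21 (SE), an estimate 32.1% lower, with a 95% interval that ended below 0, an unadjusted p of 0.0144 and an adjusted p of 0.225. With the library run as a covariate the estimate was the same, the SE 0.15 and the adjusted p 0.0367, in a fit that called 366 genes against 98 without it. Without AOB-F replicate 3 the estimate was -0.74 with an adjusted p of 0.0466, in a fit that called 636 genes. Without AOB-F replicate 4 it was -0.41 (unadjusted p 0.0705). In whole tissue, fewer cardiomyocytes and less RNA of a gene per cardiomyocyte cannot be told apart.

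Ckmt2 in LV was at 1794, 3387, 3521 and 2385 CPM in AOB-F replicates 1 to 4 and at 3779, 4643 and 3474 CPM in Sham-LF. The same 2 animals were lowest, and replicate 3 again reached the lowest sham. Ckmt2 thus had a log2 fold change of -0.51 ± 0.22 (SE; unadjusted p 0.0253, adjusted p 0.292), and -0.35 without AOB-F replicate 1 (unadjusted p 0.115). In this comparison 98 of 11703 genes (0.837%) passed the adjusted threshold, and 5.67% were lower with an unadjusted p under 0.05, as were 2 of the 4 members.

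In Spt, Ckmt2 was at 3121, 3992, 2654 and 3943 CPM in AOB-F and at 5028, 5733 and 4393 CPM in Sham-LF. All 4 AOB-F libraries lay below all 3 shams, which 4.4% of the 11624 genes tested also did. The log2 fold change was -0.58 ± 0.19 (SE; 95% interval -0.95 to -0.20), an estimate 32.9% lower, with an unadjusted p of 0.0040 and an adjusted p of 0.159, the lowest of all 100 values. It stayed between -0.67 and -0.45 when each animal was left out in turn, with an unadjusted p of 0.0373 or less.

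Ckm in Spt was at 2478, 3780, 2435 and 3809 CPM in AOB-F and at 3512, 4425 and 4446 CPM in Sham-LF. Replicates 1 and 3 lay below all shams, while replicates 2 and 4 lay above the lowest sham. This gave a log2 fold change of -0.42 ± 0.17 (SE; unadjusted p 0.0187, adjusted p 0.283), and -0.30 without AOB-F replicate 3 (unadjusted p 0.106). In Spt 27 of 11624 genes (0.232%) passed, and 6.5% were lower with an unadjusted p under 0.05, again with 2 of the 4 members among them.

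In RV, the ventricle not directly loaded by the aortic clip, Ckm was at 2805, 4427, 4489 and 3000 CPM in AOB-F and at 5087, 4800 and 4632 CPM in Sham-LF. The 4 AOB-F libraries lay below all 3 shams, as did 5.54% of genes, and replicates 1 and 4 were again the lowest. For Ckm in RV the log2 fold change was -0.37 ± 0.18 (SE; unadjusted p 0.0429, adjusted p 0.373), and -0.28 without AOB-F replicate 1 (unadjusted p 0.132). Ckmt2 in RV was at 2409, 4586, 4959 and 2808 CPM against 6261, 5309 and 4454 CPM, with replicates 1 and 4 below the shams and the other two inside their range. Its log2 fold change was -0.51 ± 0.21 (SE; unadjusted p 0.0222, adjusted p 0.352), and -0.37 without AOB-F replicate 1 (unadjusted p 0.0825). No gene of 11734 (0%) passed in RV by edgeR, which gave 1509 with an unadjusted p under 0.05, while DESeq2 called 3, and 5.95% were lower with an unadjusted p under 0.05. In LV, where Ckm and Ckmt2 overlapped with the shams, 6.21% of genes had all AOB-F libraries below all shams.

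**Figure D2:**
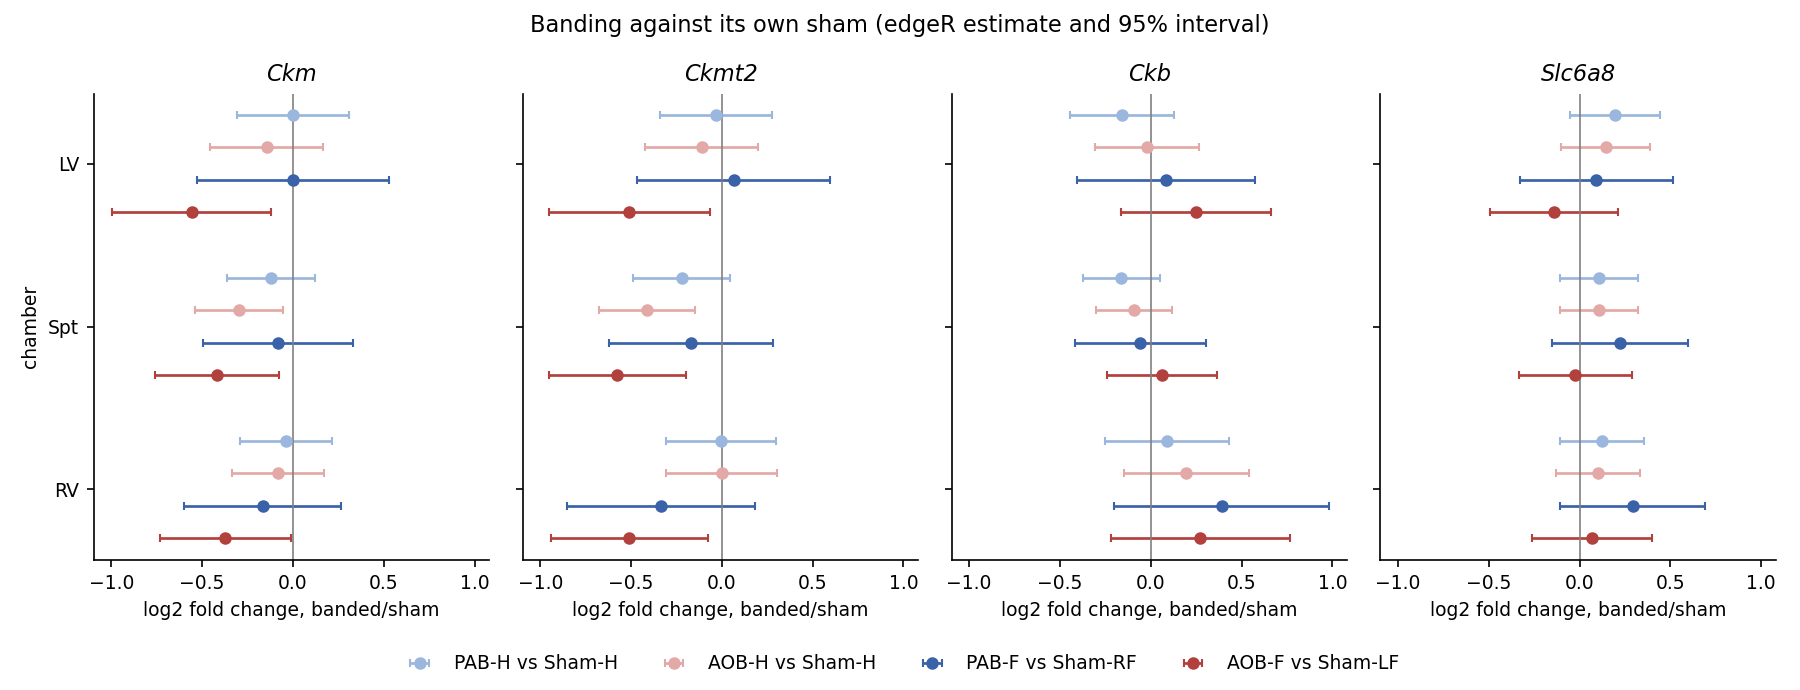
Difference of each member upon banding, as the log2 fold change against the matching sham (horizontal axes; points are edgeR estimates, bars 95% intervals), by chamber (vertical axis) and group (colour). For AOB-F the intervals of Ckm and Ckmt2 end below 0 in all 3 chambers, before adjustment for the number of genes; those of Ckb and Slc6a8 span 0 throughout.

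Ckb did not share this pattern. In LV it was at 498, 367, 334 and 462 CPM in AOB-F and at 333, 394 and 329 CPM in Sham-LF, and in RV at 448, 314, 295 and 633 CPM against 387, 365 and 310 CPM. Replicates 1 and 4, the animals with the least Ckm, held the most Ckb in both ventricles, while the other AOB-F libraries lay within or near the sham range. The log2 fold changes were 0.25 ± 0.20 in LV (adjusted p 0.736), 0.06 ± 0.15 in Spt (adjusted p 0.927) and 0.27 ± 0.24 in RV (adjusted p 0.581). The RV value was 0.01 without AOB-F replicate 4. Slc6a8 had log2 fold changes of -0.14 ± 0.17 in LV (adjusted p 0.890), -0.02 ± 0.15 in Spt (adjusted p 0.977) and 0.07 ± 0.16 in RV (adjusted p 0.859), where the intervals run from -0.49 to 0.21, from -0.33 to 0.29 and from -0.26 to 0.40.

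The ratio of Ckb to Ckm within a library separated some AOB-F libraries from all shams. On the FPKM scale Ckb stood at 21.2%, 10.6%, 8.29% and 23.1% of Ckm in LV of AOB-F replicates 1 to 4, and at 7.60%, 8.16% and 8.35% in Sham-LF. In Spt it stood at 18.8%, 8.72%, 15.6% and 8.16% in AOB-F against 9.57%, 9.07% and 7.23%, and in RV at 16.1%, 7.13%, 6.6% and 21.2% against 7.65%, 7.64% and 6.72%. In each chamber 2 AOB-F libraries were far above the shams and at least 1 was inside their range, so the groups overlapped. Over all 36 sham libraries of either age the highest ratio was 9.57%. It was exceeded by 7 of 12 AOB-F, 3 of 9 PAB-F, 3 of 21 AOB-H and 0 of 21 PAB-H libraries. Each animal gave 3 of these libraries, so the 12 of AOB-F come from 4 animals and are not independent. The 7 were replicates 1, 2 and 4 in LV, 1 and 3 in Spt and 1 and 4 in RV. The ratio was compared as a description and was not tested.

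**Figure D3:**
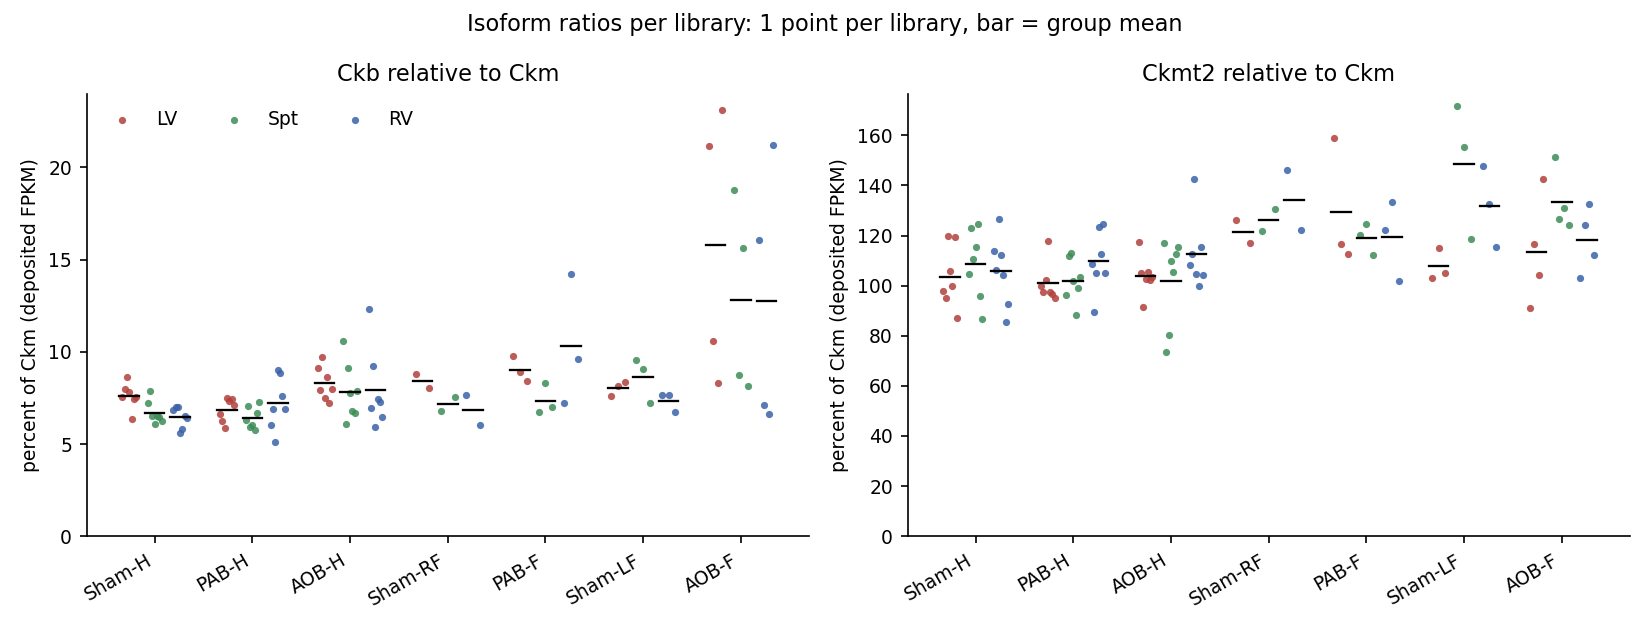
Ckb (left) and Ckmt2 (right) as a percentage of Ckm within each library, on the deposited FPKM scale (vertical axes, from 0), by group (horizontal axes) and chamber (colour). Each point is 1 library and each bar a group mean. For Ckb, 6 AOB-F libraries lie at 15.6% to 23.1%, against at most 9.57% in the shams, and Ckmt2 shows no such separation. These 6 libraries are replicates 1 and 4 in LV and RV and replicates 1 and 3 in Spt, so they share animals.

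Ckmt2 relative to Ckm did not separate the groups. In LV it stood at 91.0% to 142% of Ckm in AOB-F and at 103% to 115% in Sham-LF, and over all 99 libraries at 112.5% ± 17.1 (SD). Slc6a8 relative to Ckm was 2.5%, 1.46%, 1.71% and 2.54% in AOB-F LV and 1.46%, 1.22% and 1.72% in Sham-LF, with the highest values again in replicates 1 and 4.

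Among AOB-F libraries, those with the least Ckm and Ckmt2 held the most Nppa, the atrial natriuretic peptide gene that ventricles express under load. In LV, Nppa was at 17261 and 15923 CPM in AOB-F replicates 1 and 4, at 3718 and 2178 CPM in replicates 2 and 3, and at 601 to 820 CPM in Sham-LF. In Spt it was at 13958 and 11381 CPM in replicates 1 and 3 and at 3161 and 1828 CPM in replicates 2 and 4, and in RV at 5975 and 8501 CPM in replicates 1 and 4 and at 1373 and 96.2 CPM in replicates 2 and 3. In every chamber the 2 libraries with the highest Nppa were the 2 with the lowest Ckm and Ckmt2 among AOB-F. The chambers come from the same 4 animals, and the share of all genes with the same order was not counted. Nppa in LV rose, by a log2 fold change of 3.73 ± 0.93 (adjusted p 0.0472). With 4 animals no correlation was computed.

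**Figure D4:**
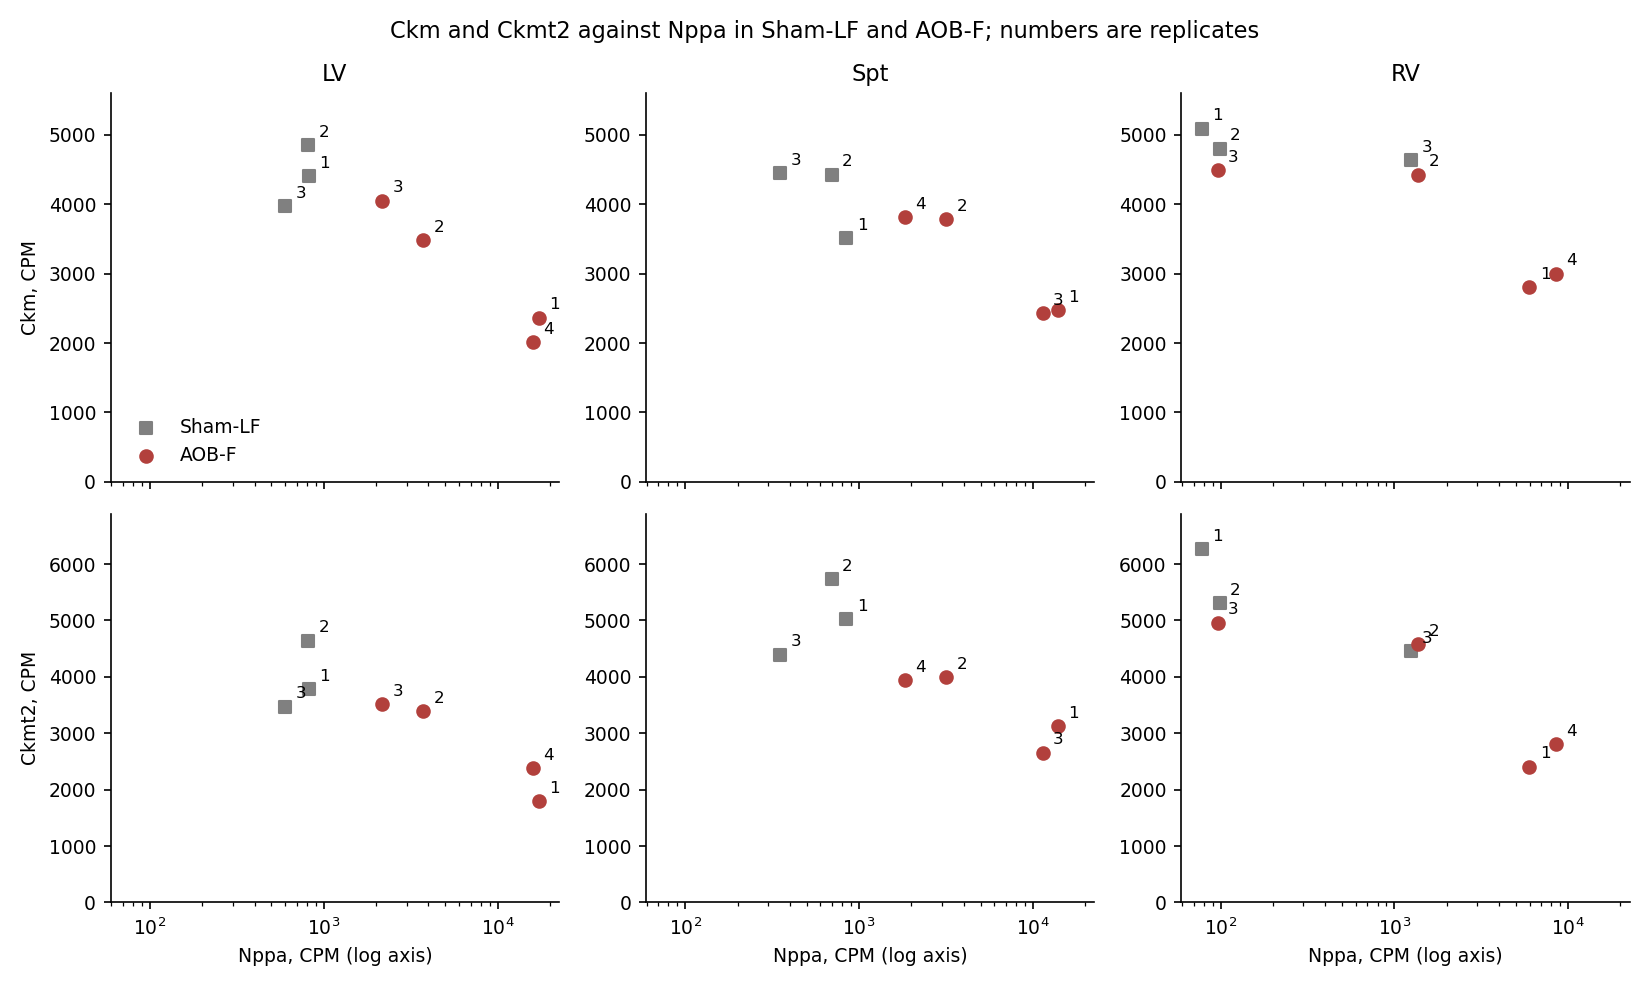
Ckm (top) and Ckmt2 (bottom), in CPM on axes from 0, against Nppa in CPM on a log axis, for the 3 Sham-LF (squares) and 4 AOB-F libraries (circles) of each chamber, numbered by replicate. In each panel the 2 AOB-F libraries farthest to the right are the lowest. They are replicates 1 and 4 in LV and RV and replicates 1 and 3 in Spt, so the panels share animals.

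The 8 cardiomyocyte markers summed to 63758 to 80949 CPM in AOB-F LV and 75730 to 95948 CPM in Sham-LF LV, to 78994 to 91313 against 88226 to 108710 CPM in Spt, and to 78471 to 94260 against 90649 to 105916 CPM in RV. None of the 8 passed the threshold, the median of their log2 fold changes was -0.17 in LV, -0.19 in Spt and -0.20 in RV, and the median of all genes was 0.01, -0.01 and 0.03. The marker genes named next were picked after their values were seen. The largest values among the 8 in LV were -1.02 ± 0.30 for Myh6, the alpha myosin heavy chain (unadjusted p 0.00183, adjusted p 0.0872), 0.65 ± 0.29 for Myh7, the beta chain (unadjusted p 0.0338), and -0.54 ± 0.23 for Tnni3, cardiac troponin I (unadjusted p 0.0234). The 6 fibroblast markers summed to 2845 to 3720 CPM in AOB-F LV against 2438 to 2653 CPM, 1829 to 2213 against 1738 to 2085 CPM in Spt, and 2067 to 2482 against 2000 to 2524 CPM in RV. The 5 macrophage and leukocyte markers summed to 161 to 221 CPM against 125 to 172 CPM in LV, and the fast skeletal muscle markers to at most 14.7 CPM in either group. The smooth muscle markers summed to 2611 to 4056 CPM in AOB-F LV against 2678 to 2891 CPM, and the endothelial markers to at most 1066 CPM in AOB-F LV and 940 CPM in Sham-LF LV. Of the markers of other cell types, Uchl1, a neuronal ubiquitin hydrolase named after its values were seen, rose in LV by 1.92 ± 0.46 on the log2 scale (adjusted p 0.0374), and Nppa stands in the atrial list too. The 5 atrial markers summed to 2221 to 17280 CPM in AOB-F LV against 611 to 853 CPM, most of it Nppa, and Myl4, an atrial myosin light chain, had a log2 fold change of 3.09 ± 1.58 (adjusted p 0.422). The 4 adipocyte markers summed to at most 1217 CPM against at most 1238 CPM. Among them, Plin1, the lipid droplet protein perilipin, was at 6.73 ± 2.34 (unadjusted p 0.00774, adjusted p 0.166) and Adipoq at 3.09 ± 1.42 (adjusted p 0.355). The others, Cfd and Fabp4, were slightly lower, at -0.10 ± 0.22 (adjusted p 0.976) and -0.10 ± 0.20 (adjusted p 0.965). Plin1 did not pass the filter on low counts in Spt, and in RV it was at 1.19 ± 1.34 (adjusted p 0.662). Among the fibroblast markers in LV, the collagen Col1a1 had the largest value, 0.88 ± 0.26 (unadjusted p 0.00233, adjusted p 0.0992). Col3a1 was at 0.68 ± 0.23 (adjusted p 0.158) and Lum at 0.39 ± 0.12 (adjusted p 0.102). Dcn was at 0.15 ± 0.12 (adjusted p 0.701) and Pdgfra at -0.05 ± 0.17 (adjusted p 0.989). No marker of these lists was at 0 in every library, although Col1a2 stayed under 1 CPM. The part of tissue composition in the Ckm and Ckmt2 values was not tested.

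At the hypertrophic stage, the Ckm and Ckmt2 values after aortic banding that had an unadjusted p under 0.05 were those in Spt. Ckmt2 in Spt had its lowest, median and highest library at 2564, 3087 and 4225 CPM in AOB-H and at 3709, 4133 and 7412 CPM in Sham-H. The groups overlapped, with 4 of 7 AOB-H libraries below all shams and 1 sham, replicate 5, far above all others. For Ckmt2 the log2 fold change was -0.41 ± 0.13 (SE; unadjusted p 0.0036, adjusted p 0.221), and -0.25 without Sham-H replicate 5 (unadjusted p 0.0245). Ckm had its lowest, median and highest library at 3143, 4314 and 4844 CPM in AOB-H and at 4031, 4634 and 7138 CPM in Sham-H, where replicate 5 was again the highest. Its log2 fold change was -0.30 ± 0.12 (SE; unadjusted p 0.0178, adjusted p 0.246), and -0.19 without that animal (unadjusted p 0.0854). Within library run 3 the log2 fold changes were -0.27 for Ckmt2 and -0.16 for Ckm, and without the 3 animals with opposite ventricles they were -0.43 and -0.26 (unadjusted p 0.00651 and 0.0546). No gene of 11624 (0%) passed by edgeR, which gave 1851 with an unadjusted p under 0.05, and 2 passed by DESeq2, and 10.3% of genes were lower with an unadjusted p under 0.05, against 2 of the 4 members. The AOB-H cardiomyocyte markers summed to 72311 to 92517 CPM in Spt and those of Sham-H to 84302 to 117208 CPM.

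In LV and RV of AOB-H no member had an unadjusted p under 0.05. The log2 fold change of Ckm was -0.15 ± 0.15 in LV and -0.08 ± 0.12 in RV, and that of Ckmt2 was -0.11 ± 0.15 and -0.00 ± 0.15. For Ckb it was -0.02 ± 0.14 in LV and 0.19 ± 0.17 in RV, and for Slc6a8 0.14 ± 0.12 and 0.10 ± 0.11. The lowest adjusted p was 0.956, and 0 of 11703 genes in LV and 0 of 11734 in RV (0% each) passed by either tool, with 531 and 110 at an unadjusted p under 0.05 by edgeR. Ckm in AOB-H LV was at 5821 and 6238 CPM in replicates 1 and 2, the libraries of run 1, and at 3495 to 4306 CPM in the other 5. Replicate numbers go with the library run in the hypertrophic arms. With the run as a covariate, Ckm in AOB-H LV was at -0.16 ± 0.10 (unadjusted p 0.133, adjusted p 0.568), and with the replicate number as a block at -0.16 ± 0.12 (adjusted p 0.812). The highest Ckb to Ckm ratio outside the failure stage, 12.3%, was in the library labelled RV of AOB-H replicate 1, an animal with opposite ventricles.

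Whether the change upon banding differed between failure and hypertrophy was tested as an interaction. In LV upon AOB it was -0.41 ± 0.26 for Ckm (adjusted p 0.771), -0.40 ± 0.26 for Ckmt2 (adjusted p 0.792), 0.27 ± 0.25 for Ckb (adjusted p 0.916) and -0.29 ± 0.21 for Slc6a8 (adjusted p 0.836). No gene of 11703 (0%) passed by edgeR or DESeq2, with 890 at an unadjusted p under 0.05 by edgeR, so a difference between stages was not shown for any member. A difference between the change in LV and that in RV was not detectable either. LV minus RV was -0.18 ± 0.27 for Ckm, 0.01 ± 0.30 for Ckmt2, -0.02 ± 0.29 for Ckb and -0.20 ± 0.23 for Slc6a8, with 0 of 11924 genes (0%) passing by either tool and 286 at an unadjusted p under 0.05 by edgeR. The interval of that difference for Ckmt2 ran from -0.58 to 0.60.

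Upon pulmonary banding no member had an unadjusted p under 0.05 at either stage. At the hypertrophic stage in the loaded RV, the log2 fold change was -0.04 ± 0.12 for Ckm, -0.01 ± 0.15 for Ckmt2, 0.09 ± 0.17 for Ckb and 0.12 ± 0.11 for Slc6a8. In LV the values were -0.00 ± 0.15, -0.03 ± 0.15, -0.16 ± 0.14 and 0.19 ± 0.12, and in Spt -0.12 ± 0.12, -0.22 ± 0.13, -0.16 ± 0.10 and 0.11 ± 0.11, in the same order. The lowest adjusted p was 0.790, and 0% of genes passed in each chamber by either tool, with 552 in LV, 516 in Spt and 148 in RV at an unadjusted p under 0.05 by edgeR. Slc6a8 was higher on average in each chamber of PAB-H and of AOB-H than in Sham-H, by 0.10 to 0.19 on the log2 scale, and these 6 comparisons share the Sham-H animals of their chamber.

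At failure upon PAB, the RV estimates were below 0 for Ckm and Ckmt2 and above 0 for Ckb and Slc6a8. Ckmt2 in RV was at 4251, 3505 and 3049 CPM in PAB-F replicates 1 to 3 and at 4664 and 4401 CPM in Sham-RF. All PAB-F libraries were below both shams, as were 18.6% of all genes, and the log2 fold change was -0.34 ± 0.25 (SE; adjusted p 0.723). Ckm in RV was at 4172, 3149 and 3586 CPM against 3825 and 4318 CPM, with a log2 fold change of -0.17 ± 0.21 (adjusted p 0.824). Ckb in RV was at 299, 445 and 342 CPM against 292 and 259 CPM, with a log2 fold change of 0.39 ± 0.29 (adjusted p 0.720). Slc6a8 in RV was at 144, 154 and 176 CPM against 115 and 142 CPM, with a log2 fold change of 0.29 ± 0.19 (adjusted p 0.691). All PAB-F libraries lay above both shams for Ckb and for Slc6a8, as did 16.7% of genes, and none of the 4 members passed. DESeq2 called 1 gene and edgeR none of 11734 (0%), although 982 lay under 0.05 before adjustment.

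In PAB-F the RV libraries with the lowest Ckm were also those with the highest Nppa. The share of all genes with this order was not counted. Replicates 2 and 3 held 5640 and 5285 CPM of Nppa and replicate 1 held 287 CPM, while Ckb stood at 14.2%, 9.59% and 7.21% of Ckm in replicates 2, 3 and 1 on the FPKM scale. In Sham-RF RV the ratio was 7.68% and 6.03%. In LV and Spt of PAB-F the lowest adjusted p of a member was 0.816, with 0% of genes passing by either tool and 122 and 481 at an unadjusted p under 0.05 by edgeR. In Spt all 3 PAB-F libraries were below both shams for Ckmt2 (4047 to 4395 against 4689 and 4758 CPM) and above both for Slc6a8 (161 to 181 against 140 and 157 CPM), as were 21.6% and 21.2% of genes. Failure minus hypertrophy in RV upon PAB was -0.13 ± 0.24 for Ckm, -0.33 ± 0.29 for Ckmt2, 0.30 ± 0.33 for Ckb and 0.17 ± 0.22 for Slc6a8, and RV minus LV at failure was -0.16 ± 0.32, -0.39 ± 0.36, 0.31 ± 0.35 and 0.21 ± 0.28. Neither interaction passed for any gene by edgeR (0% each), with 313 and 583 at an unadjusted p under 0.05, and DESeq2 called 0 and 2.

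Age without banding was compared between the 5 older shams and the 7 Sham-H animals. The transporter had lower means in the older shams. In RV the lowest, median and highest Slc6a8 level was 144, 163 and 210 CPM in Sham-H, and the older shams were at 115, 142, 126, 124 and 181 CPM. Of the 5 older shams 4 lay below all young ones, and Sham-LF replicate 3 lay inside their range. In Spt the older shams were at 157, 140, 109, 139 and 197 CPM. The lowest, median and highest Sham-H level there was 136, 177 and 213 CPM. Only 1 of the 5 older shams lay below all young ones in Spt. The log2 fold change was -0.30 ± 0.13 in RV (unadjusted p 0.0235, adjusted p 0.390) and -0.30 ± 0.12 in Spt (unadjusted p 0.0174, adjusted p 0.211). In Spt it was -0.43 without Sham-LF replicate 3 (adjusted p 0.0270, in a fit that called 754 genes against 12) and -0.20 without Sham-LF replicate 1 (unadjusted p 0.0810). In LV it was -0.17 ± 0.13 (adjusted p 0.944), and inside run 2 it was -0.32 in LV and -0.35 in RV. Genes lower with an unadjusted p under 0.05 made up 9.05% in Spt and 4.69% in RV, with 1 of the 4 members in each.

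No kinase had an unadjusted p under 0.05 with age. The log2 fold change of Ckm was -0.25 ± 0.17 in LV, -0.21 ± 0.13 in Spt and -0.20 ± 0.14 in RV, and -0.09, -0.12 and -0.08 inside the library run that holds the older shams. That of Ckmt2 was -0.08 ± 0.17, 0.11 ± 0.14 and 0.13 ± 0.16, and that of Ckb -0.13 ± 0.16, 0.02 ± 0.11 and -0.08 ± 0.19. The lowest adjusted p of a kinase was 0.416, while 0.0171% of all genes passed in LV (2 genes), 0.103% in Spt (12) and 0.0852% in RV (10).

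No member passed between the 3 chambers of a sham heart. In Sham-H, RV minus LV was 0.04 ± 0.13 for Ckm, 0.09 ± 0.15 for Ckmt2, -0.19 ± 0.14 for Ckb and -0.10 ± 0.11 for Slc6a8, and in the older shams 0.07 ± 0.16, 0.29 ± 0.18, -0.14 ± 0.17 and -0.24 ± 0.14. In the older shams 719 of 11924 genes (6.03%) differed between RV and LV, and the lowest adjusted p of a member was 0.261, for Slc6a8. With the animal as a block 1496 genes differed, again no member among them. In Sham-H no gene (0%) differed by either tool, with 721 at an unadjusted p under 0.05 by edgeR. Without the 3 animals with opposite ventricles 149 differed, no member among them. These animals were picked by their own difference between RV and LV, so leaving them out favours a higher count. Spt minus LV lay between -0.20 and 0.09 in Sham-H and between -0.12 and 0.28 in the older shams, where 0.0923% and 0.805% of genes passed. RV minus Spt lay between -0.11 and 0.04 in Sham-H and between -0.12 and 0.05 in the older shams, where 0.772% and 2.39% of genes passed. No member passed in these comparisons, with or without the animal as a block. For those with Spt the block takes the animal number of the labels, which the expression of the other genes matched in 16 of 33 septa.

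The other genes of creatine supply were described next to Slc6a8. Gamt, the enzyme that finishes creatine synthesis by methylating guanidinoacetate, was at 10.3, 20.0, 21.1 and 11.3 CPM in AOB-F LV and at 23.0, 27.3 and 21.4 CPM in Sham-LF. In RV it was at 10.9, 32.3, 31.5 and 8.60 CPM against 37.3, 39.7 and 31.9 CPM. Replicates 1 and 4 were again the lowest in both ventricles, an order whose share over all genes was not counted. Its log2 fold changes were -0.60 ± 0.25 in LV (adjusted p 0.287), -0.56 ± 0.20 in Spt (adjusted p 0.205) and -0.77 ± 0.33 in RV (adjusted p 0.362). Gatm, which makes guanidinoacetate, had log2 fold changes of 0.11 ± 0.13, 0.06 ± 0.13 and 0.05 ± 0.19, and Ckmt1b of -0.43 ± 0.18 (adjusted p 0.304), -0.25 ± 0.18 and -0.15 ± 0.18. Per length, Gatm and Gamt stood at 13.4 and 17.4 FPKM in the median library. None of the 5 tested genes of this list, Slc6a8 included, passed in LV, Spt or RV of AOB-F, and their median log2 fold change was -0.14, -0.09 and 0.05, against 0.01, -0.01 and 0.03 over all genes.

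Of the 14 tested genes for adenylate kinases and nucleotide exchange, 0 passed in AOB-F in any chamber by edgeR, and 3 (LV), 2 (Spt) and 3 (RV) were lower with an unadjusted p under 0.05, with none higher, beside 5.67%, 6.5% and 5.95% lower over all genes. Their median log2 fold change was -0.20, -0.11 and -0.14. Slc25a4, the heart's ADP/ATP carrier of the inner mitochondrial membrane, was named after its values were seen, with log2 fold changes of -0.56 ± 0.19 in LV (adjusted p 0.163), -0.56 ± 0.16 in Spt (adjusted p 0.114) and -0.51 ± 0.19 in RV (adjusted p 0.347). Of 7 AMPK subunits 0 passed and 1, in LV, had an unadjusted p under 0.05. Of 11 transcription regulators of energy genes 0 passed and 1 in each chamber was lower with an unadjusted p under 0.05, and such counts of 1 are near the share over all genes. Of the 4 load markers 1 passed, Nppa in LV, and 4 (LV), 4 (Spt) and 3 (RV) were higher with an unadjusted p under 0.05. Over all genes, 1486 of 11703 in LV, 1420 of 11624 in Spt and 1509 of 11734 in RV had such a p in either direction.

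With group means removed, log2 levels of Ckm and Ckmt2 correlated at r = 0.779 over 99 libraries, Ckm and Ckb at 0.267, Ckm and Slc6a8 at -0.03, and Ckmt2 and Slc6a8 at -0.398. Over the 21 group means, Ckm and Ckmt2 correlated at 0.738, Ckm and Slc6a8 at 0.483 and Ckm and Ckb at -0.329. These points share animals, library runs and scaling, and the coefficients are descriptions. Among 10702 genes, those most like Ckmt2 over the 21 group means were Suclg1 (r = 0.988), a succinyl-CoA ligase subunit, Sdhb (0.976), the iron-sulfur subunit of succinate dehydrogenase, and Ndufs7 (0.969), a subunit of complex I. Those most like Ckm included Fndc5 (0.976) and Rbm38 (0.975), an RNA-binding protein. Those most like Slc6a8 were Fem1a (0.975), Ak1 (0.964), the main cytosolic adenylate kinase of muscle, and Kcnk3 (0.957), a background potassium channel. For Ckb the closest genes were less close: Cib1 (0.828), Vnn1 (0.804) and Tsen54 (0.780).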

How the data were processed

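The deposited table holds, for each library, raw read counts per gene, the counts after division by size factors (a normalized count signal) and FPKM; the authors produced these with Trim Galore, STAR, featureCounts and DESeq2 per the labels. Whether counting used strand is not given in the sources used here. Counts were tested with edgeR 4.0.16 (TMM scaling, filterByExpr, quasi-likelihood F test) in R 4.3.3. Banding, age and stage used 1 fit of 33 libraries per chamber, and chamber contrasts and their interactions 1 fit of 99 libraries with no block. P-values were adjusted by Benjamini-Hochberg over all tested genes. The deposited normalized signal equals the count divided by 1 factor per library, and deposited FPKM was used only to compare genes. Levels in CPM follow TMM. SE and 95% intervals come from the same fit. The chambers of an animal were paired by the animal number in the labels: LV and RV deviated together in 27 of 33 animals (r above 0.1), but a septum was closest to the ventricles of its labelled animal in 16 of 33, so the block is doubtful for Spt. DESeq2 1.42.0 was an alternative. The tests were tried on simulated data. Library runs are consecutive stretches of the library numbers in the labels. The members and lists were chosen with earlier results of these data known. Named genes are the members, Gatm, Gamt, Ckmt1b, listed genes that pass at failure, and the 3 genes most like each member, of which 1 is not reported here. Slc25a4, Uchl1 and the single marker genes were named after their values were seen. For RV libraries a tissue field also names the left ventricle, and the title was followed.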

Additional observations from a re-analysis of the deposited data

Results flagged for a closer look

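Within the groups of 4 to 10 libraries, 7 of the 48 member and group combinations held a library far from the others by Dixon's criterion at the 95% level, which chance alone meets in about 1 of 20. In Sham-H Spt, replicate 5 was the highest library for Ckm (7138 CPM, the next at 5370 CPM), for Ckmt2 (7412 CPM, the next at 4672 CPM) and for Ckb (464 CPM, the next at 332 CPM), and it enters every comparison with Sham-H in Spt. In AOB-H RV, replicate 2 was the highest for Ckm (6515 CPM, the next at 4772 CPM) and Ckmt2 (6110 CPM, the next at 4786 CPM), and replicate 3 was the lowest for Slc6a8 (124 CPM, the next at 172 CPM). In PAB-H RV, replicate 3 was the lowest for Ckb (209 CPM, the next at 355 CPM). No cause of these values was tested.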

How the results depend on the processing

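Under the alternatives, 452 counts of members past the threshold were 0 as reported, and 3 were 1. In AOB-F LV the count was 1 with the library run as a covariate (Ckm, with 366 genes called against 98), and it ranged from 0 to 1 when each animal was left out, with 1 (Ckm, with 636 genes called) without AOB-F replicate 3. In the older shams in Spt it ranged from 0 to 1 in the same way, with 1 (Slc6a8, with 754 genes called against 12) without Sham-LF replicate 3. Of 1820 alternative log2 fold changes, 124 had the opposite sign, all of values whose reported size was at most 0.13. The cause of these shifts was not tested.

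Counts over all genes depended on the tool and on the animals: in AOB-F LV 98 genes passed by edgeR and 255 by DESeq2, and in AOB-F Spt 27 and 145. No comparison of 3 or more pairs across arms had every pair deviate together (r above 0.1), so replicate numbers were not taken as pairs. In the hypertrophic arms they do go with the library run, and in LV and RV 5 or 6 of 7 pairs were above that limit (median r 0.37 to 0.51). With the replicate number as a replicate block, 0 of 68 member values passed and 11 had an unadjusted p under 0.05, while genes called in AOB-F LV went from 98 to 2, in AOB-F Spt from 27 to 133 and in the older shams in LV from 2 to 961. With the animal as a replicate block in the chamber comparisons, 0 of 32 member values passed. Groups of 2 to 4 animals limit what the failure-stage comparisons can show.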
